A study of Mus musculus with 6 samples.

Results

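Chromosome 6 carries 372 of the protein-coding genes that were well expressed in these mouse leukemia cells, out of 56748 genes in the table. Members were the protein-coding genes annotated to chromosome 6 with a mean CPM (counts scaled to the library total) of at least 16 over the 6 libraries, leaving out the 6 Hoxa genes that met the same minimum. Chromosome 6 held 3192 genes of all biotypes and 1117 protein-coding genes in the table. The comparison set was the 7428 protein-coding genes of the other 18 autosomes at the same minimum. Libraries 27 and 29 were singled out because chromosome 6 genes stood higher in them, so every value of their shift is a description and has no test.

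The study used bulk RNA sequencing of mouse bone marrow cells carrying MLL-AF9, the product of a translocation that joins MLL to AF9 and drives acute myeloid leukemia. All 6 libraries carry that fusion. Of these, 3 were labelled Rbm5 KO (numbers 31, 32 and 40) and 3 wild type (numbers 25, 27 and 29), where RBM5 is an RNA-binding protein that acts in pre-mRNA splicing. The labels give no treatment, time, age or strain, and do not say how Rbm5 was disrupted or how the fusion was introduced. Their text names the source both as whole marrow and as cells in culture, and calls the replicates independent, so the p-values below measure the spread between these libraries, whatever its source.

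An autosome is normally present in a pair of copies, and each gene on it is read from both. When a cell gains or loses a copy, most of its genes change in messenger RNA roughly with the number of templates, while some change less, which is called buffering, and others change more through their own regulation. Excess subunits of protein complexes are often removed after translation, so buffering at the protein level need not appear in RNA. DNA copies of chromosome 6 were not measured here, and the 1.5-fold line used below is only the ratio of 3 copies to 2.

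Totals ran from 26359299 to 31807588 counts. Erythroid markers summed to 1.43 to 5.39 CPM and T and NK cell markers to 2.28 to 7.31 CPM, although the labels name whole marrow. B cell markers summed to 9.71 to 29.7 CPM and megakaryocyte markers to 7.20 to 21.2 CPM. Markers of stroma and endothelium summed to 81.6 to 184 CPM. Every marker was detected. On chromosome 6 were 3 of the 8 T and NK markers, 1 megakaryocyte marker and 2 of stroma and endothelium. As for the targeted gene, Rbm5 counts did not fall with the knockout label: the gene stood at 227, 214 and 174 CPM in wild-type libraries 25, 27 and 29 and at 269, 267 and 245 CPM in libraries 31, 32 and 40 (log2 difference 0.34, edgeR quasi-likelihood test, Benjamini-Hochberg adjusted p = 0.107). "Labelled knockout" is therefore written throughout. The 4 Y-linked genes examined had 0 counts in all 3 wild-type libraries and were detected in all 3 labelled knockout. Xist stood at 1269 to 1625 CPM in the wild-type libraries and at 13.02, 192 and 32.5 CPM in libraries 31, 32 and 40, so that library 32 held the most Xist of those with Y-linked counts. Thus sex and labelled genotype cannot be told apart.

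Promoter sequences of 3 members with unlike shifts are shown first. Phb2 (ENSMUSG00000004264) encodes prohibitin 2, a scaffold of the inner mitochondrial membrane. It rose in libraries 27 and 29 by more than the median member (log2 shift 0.74, member median 0.36). Alox5 (ENSMUSG00000025701) encodes the lipoxygenase that starts leukotriene synthesis in myeloid cells. Its level in libraries 27 and 29 was lower than in the libraries labelled knockout (log2 difference -0.78). That level was higher by 0.43 than in wild-type library 25, against which the member median was 0.41. Clec12a (ENSMUSG00000053063) encodes an inhibitory C-type lectin receptor of myeloid cells, and did not follow the shift. Each line is the 250 bases before the RefSeq start, 5′ to 3′ along the gene, with matches to CCGGAAG or GAGGAAG (ETS-type motifs, either strand) in capitals. The positions in GRCm38.p6 are chr6:124712039-124712288 (plus strand), chr6:116461179-116461428 (minus strand) and chr6:129349994-129350243 (plus strand).
Phb2: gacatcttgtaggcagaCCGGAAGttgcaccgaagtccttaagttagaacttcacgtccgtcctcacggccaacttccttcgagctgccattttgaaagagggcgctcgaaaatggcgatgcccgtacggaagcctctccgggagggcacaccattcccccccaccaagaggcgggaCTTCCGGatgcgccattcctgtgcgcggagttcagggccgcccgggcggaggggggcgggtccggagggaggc
Alox5: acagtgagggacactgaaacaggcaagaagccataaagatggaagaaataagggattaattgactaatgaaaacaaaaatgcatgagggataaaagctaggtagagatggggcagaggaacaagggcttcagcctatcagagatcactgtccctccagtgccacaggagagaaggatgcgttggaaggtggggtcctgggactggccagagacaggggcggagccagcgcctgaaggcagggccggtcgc
Clec12a: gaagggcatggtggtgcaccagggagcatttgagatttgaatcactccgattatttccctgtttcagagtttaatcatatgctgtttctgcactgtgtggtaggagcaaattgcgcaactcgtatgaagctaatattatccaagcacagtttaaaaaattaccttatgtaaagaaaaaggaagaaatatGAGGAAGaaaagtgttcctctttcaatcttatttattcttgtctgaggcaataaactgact
The Phb2 window held CCGGAAG once on each strand, 233 and 73 bases before the start. That of Clec12a held GAGGAAG, 61 bases before the start, and that of Alox5 held neither motif. The Phb2 window had 22 CpG sites, the Alox5 window 5 and the Clec12a window 3.

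Members shared a chromosome-wide rise in wild-type libraries 27 and 29. After TMM scaling, with levels taken as log2(CPM + 0.5) and each gene set against its own mean over the 6 libraries, the chromosome 6 median stood at 0.27 in library 27 and 0.25 in library 29. It stood at -0.13 in wild-type library 25 and at -0.13, -0.14 and -0.13 in libraries 31, 32 and 40. The 4 other libraries thus lay together, and wild-type library 25 sided with those labelled knockout. Medians of the other 18 autosomes ran from -0.06 to 0.05 over all libraries. Chromosome 6 members took 5.14% and 5.12% of all counts in libraries 27 and 29, against 4.05% in library 25 and 3.99%, 3.85% and 3.77% in libraries 31, 32 and 40.

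**Figure D1:**
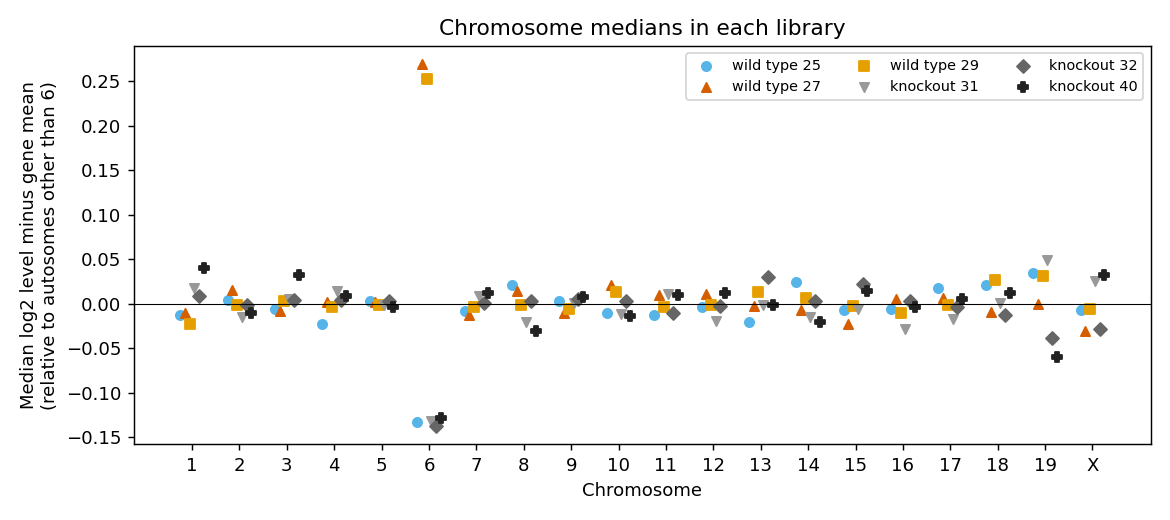
Median log2 level of protein-coding genes by chromosome (x axis), each gene set against its own mean and each library against the other autosomes (y axis), with 1 point per library and knockout meaning labelled knockout. On chromosome 6, libraries 27 and 29 stand at 0.27 and 0.25 and the other 4 at -0.14 to -0.13, while no other autosome leaves -0.06 to 0.05.

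Gene by gene, the shift was taken as the mean log2 level in libraries 27 and 29 minus the mean in the other 4. Its median over members was 0.36, a fold of 1.29, with quartiles of 0.19 and 0.52. On the log2 scale this median is 62.3% of a 1.5-fold change. Shifts were above 0 for 328 members (88.2%), against 46.9% of genes on the other autosomes, whose median was -0.02. Both libraries lay above all 4 others for 227 members (61.0%), where the background over all 8048 protein-coding genes at this minimum was 11.3%. Both lay below for 3 members (0.806%), against a background of 9.44%, and 142 members overlapped. The rule used this contrast, so nothing more is read from these counts.

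Each of the 2 libraries showed the shift by itself. Library 27 alone had a median of 0.38 and stood above all 4 others for 265 of 372 members. Library 29 alone had a median of 0.37 and did so for 251. Of 7428 genes on the other autosomes, library 27 did so for 1289 and library 29 for 1491. The rule singled out these libraries by this contrast, so the counts are descriptions. Library 27 minus library 29 had a median of 0.01 over members, with a median absolute difference of 0.165, against 0.144 for the other autosomes. Differences between the 2 libraries were therefore about as wide for members as elsewhere.

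The spread of shifts among members was close to that of other genes. The distance between quartiles was 0.329 for members and 0.315 for the other autosomes, so the members' distribution was displaced with nearly the same width. The SD over the 4 other libraries had a median of 0.185 for members and 0.178 for the other autosomes. Members just above the CPM minimum were Bola3 (shift 0.68), Slc41a3 (0.18) and Dennd2a (-0.15), and genes just below it were Rab11fip5 (-0.89), Ndufa5 (0.33) and Ogg1 (0.51).

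**Figure D2:**
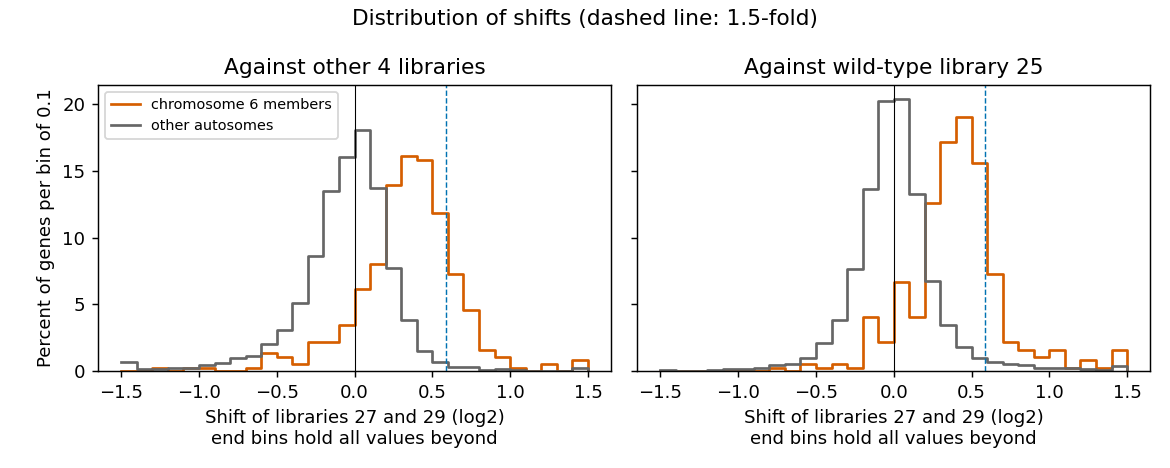
Percent of genes (y axis) in bins of 0.1 of the log2 shift of libraries 27 and 29 (x axis), against the other 4 libraries (left) and against wild-type library 25 alone (right), for 372 members and 7428 genes of the other autosomes. Members peak to the right of 0 in both panels, with medians of 0.36 and 0.41, and other genes peak at about 0.

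The shift ran along the whole chromosome. Members started between positions 3372257 and 149210912 as deposited (no build is named for these positions), and 15 windows of 10 Mb held at least 5 of them each. In the 8 windows with 20 or more members, the median shift was 0.34 to 0.46. Over all 15 windows it ran from 0.25 (20 to 30 Mb, 15 members) to 0.53 (60 to 70 Mb, 5 members), and none fell to the level of the other autosomes. The Clec cluster lies between 120 and 130 Mb, where the window median over 65 members was 0.40.

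**Figure D3:**
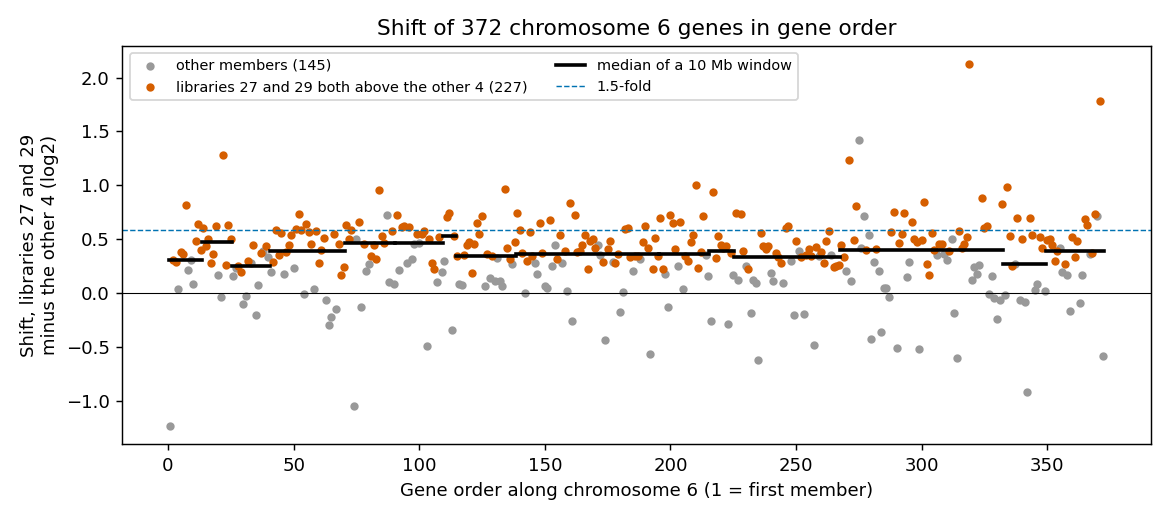
Log2 shift of each member (y axis) by gene order along chromosome 6 (x axis), with members in which both libraries lie above the other 4 in orange, the rest in grey, and black bars for window medians. All window medians lie between 0.25 and 0.53, and low members are scattered among high ones.

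Expression level and length made little difference to the median. In 4 equal groups by mean CPM, from lowest to highest, median shifts of members were 0.41, 0.32, 0.40 and 0.34. In 4 equal groups by deposited gene length, from shortest to longest, they were 0.36, 0.40, 0.35 and 0.36.

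Members were put into response classes by their shift. A class near 1.5-fold (within 0.15 of 0.58) held 127 members (34.1%), and a class over it held 21 (5.65%). Between those and the flat class lay 147 partial members (39.5%). The flat class (within 0.15 of 0) held 48 members (12.9%), and the opposite class, below it, held 29 (7.80%). On the other autosomes the same limits gave 1.87% near 1.5-fold, 0.835% over, 18.7% partial, 49.0% flat and 29.6% opposite. Classes cut a continuous range of values and are not kinds of gene. By the deposited positions 79 members overlap another protein-coding gene, and their counts cannot be fully told apart where strand was not used. These include Arpc4 and Ttll3, which overlap each other on 1 strand, Tbxas1, and, with partners on the opposite strand, Rpl32, Serbp1, Tpi1, Gapdh, Calu, Bid, Emg1, Irf5 and Arhgdib. Rpl32, Tpi1 and Gapdh also have processed pseudogenes that could share reads.

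The highest-expressed members near 1.5-fold had housekeeping roles. In what follows, 6 values in a row are TMM-scaled CPM in wild-type libraries 25, 27 and 29 and then in libraries 31, 32 and 40 labelled knockout. Rpl32, a protein of the large ribosomal subunit, stood at 923, 1186 and 1264, then 757, 927 and 916 (shift 0.48). Serbp1, an mRNA-binding protein that associates with ribosomes, stood at 627, 847 and 949, then 651, 602 and 597 (shift 0.53). For both genes libraries 27 and 29 were the 2 highest, and the other 4 lay together below them. Luc7l2, a splicing factor of the U1 particle, stood at 395, 548 and 553, then 370.4, 417 and 366 (shift 0.51). Tpi1, the triose-phosphate isomerase of glycolysis, stood at 328, 526 and 688, then 383, 419 and 404 (shift 0.65). Its lowest library was wild-type 25, and its 2 highest were again 27 and 29.

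Other members of this class had uneven levels among the other 4 libraries. Cnbp, a zinc-finger nucleic acid-binding protein, stood at 470.5, 583 and 643, then 378, 394 and 378 (shift 0.60). Nup210, a membrane protein of the nuclear pore, stood at 586, 797 and 893, then 681, 431 and 391 (shift 0.73). In Nup210 the labelled knockout library 31 lay above wild-type library 25, while the other two lay well below it.

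Among the members that exceeded 1.5-fold most, the lowest of the other libraries differed from gene to gene. The shift is taken against those libraries, so their low values are part of the choice. Ccnd2, the G1 cyclin D2, stood at 29.6, 67.1 and 55.8, then 7.18, 14.9 and 10.7 (shift 2.13). Its shift was 1.03 against library 25 alone, because library 25 lay between the 2 high libraries and those labelled knockout. Met, the hepatocyte growth factor receptor, stood at 12.7, 37.9 and 50.1, then 24.8, 22.2 and 13.9 (shift 1.28), and its lowest library was wild-type 25. Dennd5b, a Rab exchange factor, stood at 81.4, 102 and 124, then 3.98, 48.3 and 65.0 (shift 1.78), so its mean rests largely on the single low library 31. Suclg2, the GTP-specific subunit of succinyl-CoA ligase, stood at 55.7, 89.8 and 87.6, then 49.99, 39.9 and 33.4 (shift 1.01). Ybx3, a cold-shock RNA-binding protein, stood at 280.2, 445 and 459, then 268, 214 and 168 (shift 0.99), with both high libraries above all others. Hdhd5, of the haloacid dehalogenase-like family, stood at 15.2, 32.4 and 26.9, then 9.60, 12.6 and 12.4 (shift 1.23).

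The highest-expressed flat members that spanned little over the 6 libraries were Clec12a, Mob1a, Arpc4, Atf7ip, Calu and Zfp638. Clec12a stood at 792, 619.5 and 863, then 704, 774 and 755, so that library 27 was its lowest and library 29 its highest (shift -0.05). Atf7ip, a partner of the histone methyltransferase SETDB1, stood at 173, 167 and 169, then 189, 168 and 180.5 (shift -0.08). Its 6 libraries overlapped within a narrow range. Zfp638, a zinc-finger DNA-binding protein that recruits the HUSH silencing complex, stood at 97.4, 106 and 103, then 104, 101 and 112 (shift 0.02). Calu, a calcium-binding protein of the endoplasmic reticulum, stood at 157, 146 and 141, then 129, 129 and 131 (shift 0.08). Libraries 27 and 29 lay below library 25 and above the other 3 for Calu. Arpc4, a subunit of the actin-nucleating ARP2/3 complex, stood at 223, 257 and 258, then 252, 236 and 258 (shift 0.09). Mob1a, a kinase activator of the Hippo pathway, stood at 284, 367 and 323, then 365, 319.7 and 374 (shift 0.05), and its lowest library was wild-type 25.

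Only 3 members had libraries 27 and 29 both below all 4 others. Ttll3, a tubulin glycylase, stood at 45.4, 41.3 and 35.1, then 70.9, 49.3 and 75.01 (shift -0.62). Resf1, a regulator of retroelement silencing, stood at 80.6, 74.5 and 68.4, then 87.8, 106 and 178 (shift -0.59). Tbxas1, thromboxane A synthase, stood at 51.5, 34.3 and 35.9, then 37.1, 43.4 and 41.8 (shift -0.29). In Ttll3 and Resf1 wild-type library 25 was the nearest of the 4 others, and in Tbxas1 it was the farthest.

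Against wild-type library 25 alone, the low classes lay near the rest of the chromosome. Over all members the median shift against library 25 was 0.41, with quartiles of 0.26 and 0.54, and 91.9% were above 0, where the other autosomes had a median of -0.0007 and 49.8%. Against the 3 libraries labelled knockout it was 0.37 with wider quartiles of 0.14 and 0.56. These differences share libraries 27 and 29 and are set side by side only. The opposite class had a median of 0.43 against library 25 and of -0.67 against the libraries labelled knockout, and 25 of its 29 members were above 0 in the former. The flat class had medians of 0.30 and -0.04, with 39 of 48 above 0 against library 25. Medians were 0.38 and 0.30 for the partial class, 0.47 and 0.58 for the class near 1.5-fold, and 0.50 and 1.05 for the class over it. Genes of the other autosomes put in the same 5 classes, from opposite to over, had medians against library 25 of -0.05, -0.003, 0.06, 0.15 and 0.32. Library 25 is 1 library, so its own level has no replicate check.

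Members under a shift of 0.15 numbered 77 against the other 4 libraries and 61 against library 25, and 24 were under it by both. Of these 24, 10 also spanned under 0.5 over the 6 libraries on the log2 scale. The genes given next were among the 24. Clec12a lay at -0.05 against the other 4 and at -0.12 against library 25, and Atf7ip at -0.08 and -0.04. Calu lay at 0.08 and -0.13, Zfp638 at 0.02 and 0.10, and Tbxas1 at -0.29 and -0.55. Other low members were low by one reference only, such as Mob1a at 0.05 and 0.28 and Arpc4 at 0.09 and 0.21.

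Grouped by role, mitochondrial members and those of ribosome and RNA synthesis had the largest shares with both libraries above all others. Over all members that share was 61.0%, and over all protein-coding genes at this minimum 11.3%. The rule used this contrast, and these lists have genes in common. Against library 25 their medians, 0.35 and 0.32, were below the 0.41 of all members. The role lists were drawn up with earlier results of these data known, and hold 175 of the 372 members. The other 197 had a median shift of 0.36, with both libraries above all others in 119. Of the 21 mitochondrial members, 19 had both libraries above all others, with a median of 0.55. Immt, an organizer of mitochondrial cristae, stood at 132, 190.3 and 177, then 107, 122 and 109 (shift 0.65). Cycs, cytochrome c, stood at 90.4, 118 and 158, then 101, 76.5 and 87.6 (shift 0.62). Slc25a13, the mitochondrial aspartate-glutamate carrier, stood at 40.6, 66.1 and 62.5, then 35.9, 36.1 and 32.8 (shift 0.82), the highest of the list. Phb2 stood at 193, 253 and 257, then 145, 155 and 124 (shift 0.74). Bid, a pro-apoptotic BH3 protein, stood at 158, 214 and 207, then 123, 112 and 94.8 (shift 0.81). The 2 exceptions were Dguok, mitochondrial deoxyguanosine kinase (shift 0.44), and Mthfd2, an enzyme of mitochondrial folate metabolism, at 48.3, 46.4 and 51.2, then 66.8, 41.4 and 35.4 (shift 0.06). The list's median was 0.35 against library 25.

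Among 18 members of ribosome and RNA synthesis, 16 had both libraries above all others, and the median shift was 0.48 (0.32 against library 25). Polr1a, the largest subunit of RNA polymerase I, stood at 128, 194 and 173, then 89.1, 119 and 113 (shift 0.72). Emg1, a ribosomal RNA methyltransferase, stood at 90.4, 119 and 123, then 83.3, 77.8 and 80.1 (shift 0.54). Gars, glycyl-tRNA synthetase, stood at 154, 188 and 199, then 133, 137 and 124 (shift 0.50). In all 3 genes the 2 libraries were the highest and wild-type library 25 lay above the libraries labelled knockout. Eif4e3, of the cap-binding eIF4E family, had the lowest shift of the list at 0.15.

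The 15 splicing and RNA-binding members had a median of 0.45, with both libraries above all others in 11. Hnrnpa2b1, an abundant nuclear RNA-binding protein, stood at 1321, 1459 and 1987, then 1442, 1310.0 and 1549.9 (shift 0.28). Its library 27 lay within the range of the labelled knockout libraries, and its library 29 above all. Pcbp1, a poly(C)-binding protein, stood at 333, 438 and 423, then 376, 327 and 372 (shift 0.29), with both libraries above all others. Tra2a, a splicing regulator, stood at 159, 197 and 239.6, then 208, 191 and 282 (shift 0.08), and its shift was 0.44 against library 25. Lsm3, a subunit of the LSM ring that binds U6 RNA, had the highest shift of the list at 0.66.

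The 17 chromatin members had a median of 0.30, with both libraries above all others in 10. Setd5, a SET-domain protein, stood at 205, 284 and 261, then 218, 204 and 205 (shift 0.39). Ncapd2, of the condensin I complex, stood at 331, 418 and 479, then 382, 295 and 305 (shift 0.45). Chd4, the helicase of the NuRD complex, stood at 507, 539 and 548, then 513, 406 and 519 (shift 0.17), so that both libraries were highest by a small margin. Tet3, a 5-methylcytosine dioxygenase, stood at 162, 237 and 175, then 182, 163 and 180.1 (shift 0.25), and library 29 lay inside the range of the other 4. H2aj, a histone H2A variant, had the highest shift of the list at 0.70. Rybp, a subunit of Polycomb repressive complex 1, stood at 19.0, 27.7 and 24.2, then 37.8, 31.6 and 41.6 (shift -0.26), with its 3 wild-type libraries lowest.

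The 23 transcription factors had a median of 0.32, with both libraries above all others in 12. Etv6, an ETS repressor of blood stem cells, stood at 272, 273 and 295, then 255, 216 and 215 (shift 0.25). Irf5, an interferon regulatory factor of myeloid cells, stood at 61.7, 197 and 111, then 136, 129.6 and 149.9 (shift 0.39). Its libraries 27 and 29 lay on either side of the labelled knockout range, and library 25 far below. Mxd1, a MAX partner that opposes MYC and rises as myeloid cells mature, stood at 41.8, 75.4 and 107, then 201, 103 and 248 (shift -0.43, and 1.09 against library 25). Libraries 27 and 29 were thus above library 25, and only library 29 reached the lowest of the libraries labelled knockout.

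Among 34 members of signaling and cell cycle the median was 0.38, with both libraries above all others in 21. Arhgdib, a GDP dissociation inhibitor abundant in blood cells, stood at 946, 1195 and 1319, then 1325, 1283 and 1433 (shift 0.03, and 0.41 against library 25). Ptpn6, the phosphatase SHP-1, stood at 298, 476 and 406, then 434, 385 and 498 (shift 0.15, and 0.56 against library 25). Tnfrsf1a, a TNF receptor, stood at 117, 159 and 135, then 200.02, 171 and 197 (shift -0.19). All 3 had library 25 lowest.

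The 33 secretory, trafficking and protein quality control members had a median of 0.34, all were above 0, and 24 had both libraries above all others. Rab7, a GTPase of late endosomes, stood at 289.8, 413 and 403, then 321, 318 and 363 (shift 0.34). M6pr, a receptor that carries enzymes to lysosomes, stood at 259, 341 and 373, then 301, 256 and 269 (shift 0.40). Dctn1, the large subunit of dynactin, stood at 469, 554 and 595, then 439, 404 and 469 (shift 0.37). In these 3 genes libraries 27 and 29 were the 2 highest. Capg, an actin-capping protein of myeloid cells, stood at 95.3, 167 and 183, then 236, 139 and 250.0 (shift 0.06, and 0.87 against library 25).

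Of 6 members of glycolysis and sugar metabolism, 2 had both libraries above all others, and the median was 0.43. These were Tpi1 and Akr1b3, aldose reductase, at 143, 183 and 256, then 143, 151 and 139 (shift 0.59). Gapdh, a glycolytic dehydrogenase, stood at 193, 204 and 449, then 258, 265 and 235 (shift 0.36), so its shift rests on library 29. Slc2a3, a glucose transporter, stood at 40.3, 67.3 and 74.4, then 151, 85.1 and 159.9 (shift -0.43). Hk2, hexokinase 2, had a shift of 0.00 against the other 4 and of 0.40 against library 25.

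Immune surface receptors and lectins had the lowest median shift of the 9 lists. None of the 15 had both libraries above all others, the median shift was -0.04, and 5 were above 0. Against library 25 the median was 0.53 and 13 of 15 were above 0. Clec4a2, an inhibitory lectin of myeloid cells, stood at 99.5, 204 and 171, then 186, 226 and 255 (shift 0.05, and 0.90 against library 25). Clec5a, an activating lectin of neutrophils and monocytes, stood at 6.29, 8.61 and 14.1, then 49.8, 23.5 and 39.8 (shift -1.05, and 0.77 against library 25). Il17ra, the interleukin 17 receptor, stood at 205, 357 and 254, then 294, 279.5 and 279.9 (shift 0.20). Cd69, an activation marker, stood at 194, 126 and 469.8, then 256, 192 and 237 (shift 0.16), with library 27 lowest and library 29 highest. Reads of the closely related Clec4a genes, such as Clec4a1, Clec4a2 and Clec4a3, may be split between copies, and their values are uncertain for that reason.

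Marker sums of mature myeloid cells were likewise lowest in library 25 and highest in the libraries labelled knockout. The summed CPM of the 10 mature neutrophil markers, none on chromosome 6, was 605 in library 25, 1566 and 2249 in libraries 27 and 29, and 8525 to 15415 in the libraries labelled knockout. The 6 monocyte markers, none on chromosome 6, summed to 1466 to 2639 in wild-type libraries and 4140 to 5830 in those labelled knockout. The 8 myeloid progenitor and leukemia markers, none on chromosome 6, had another order among wild-type libraries. They summed to 2980 in library 25, 2707 in library 27 and 4011 in library 29, and to 4008 to 5909 in those labelled knockout. No marker of these lists was at 0 in all libraries. The part of these cells in the shifts of immune members was not tested, and in bulk RNA a change in the number of cells of a type and a change in RNA per cell cannot be told apart.

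**Figure D4:**
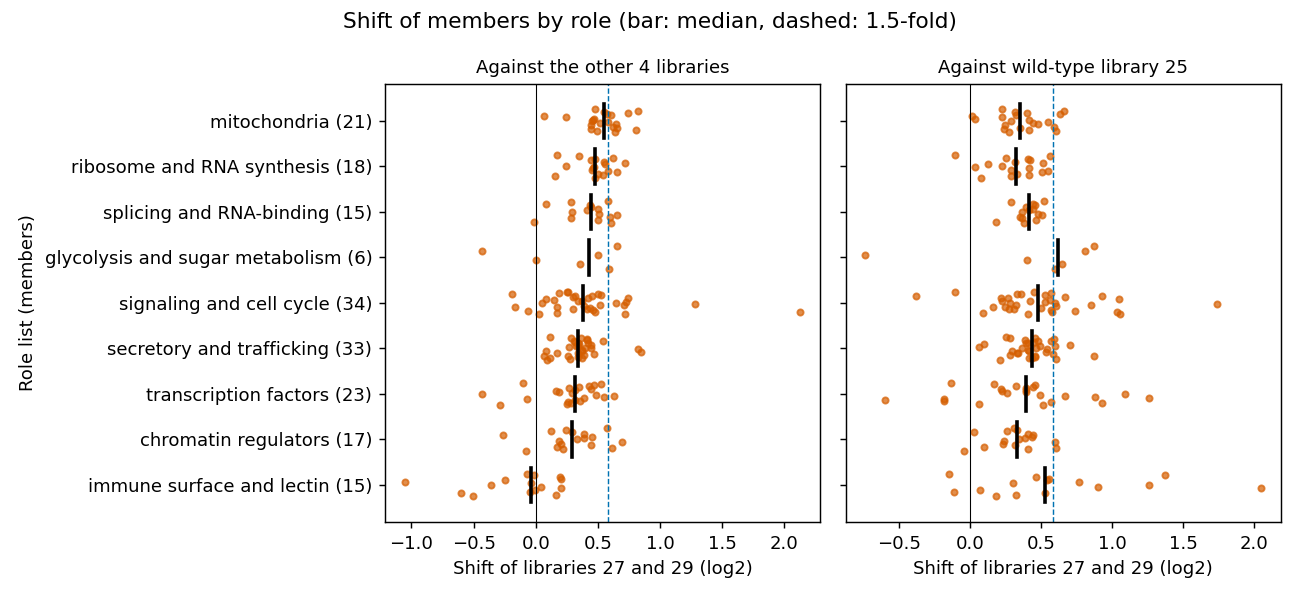
Log2 shift of libraries 27 and 29 (x axis) for the members of each role list (y axis, number of members in brackets), against the other 4 libraries (left) and wild-type library 25 alone (right), with black bars for medians. Immune members lie around 0 on the left (median -0.04) and mostly above 0 on the right (median 0.53), and all lists have positive medians on the right.

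Subunits encoded on chromosome 6 were set against partners of the same complex or family encoded elsewhere. The complexes were picked after the values had been seen, so the counts are descriptive. Of 16 subunits in 13 complexes or families, all lay above the median shift of their partners, by 0.05 (Braf) to 0.79 (Cops7a), with a median distance of 0.33. All but 1 also lay above every partner. Mcm2, of the replicative helicase, had a shift of 0.51, and its 5 partners ran from -0.15 to 0.20. Cct7, of the CCT chaperonin, had 0.39 against 0.04 to 0.18 in 7 partners. Arpc4, flat by its class, lay at 0.09 where its 6 partners ran from -0.29 to -0.12. Copg1 and Copg2, the gamma subunits of the COPI coat, lay at 0.34 and 0.17 with partners at -0.21 to -0.03. Ezh2, the methyltransferase of Polycomb repressive complex 2, lay at 0.20 with partners at -0.19 and 0.12. The exception, Snrpg of the Sm ring, lay at 0.50, below its partner Snrpe at 0.59.

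**Figure D5:**
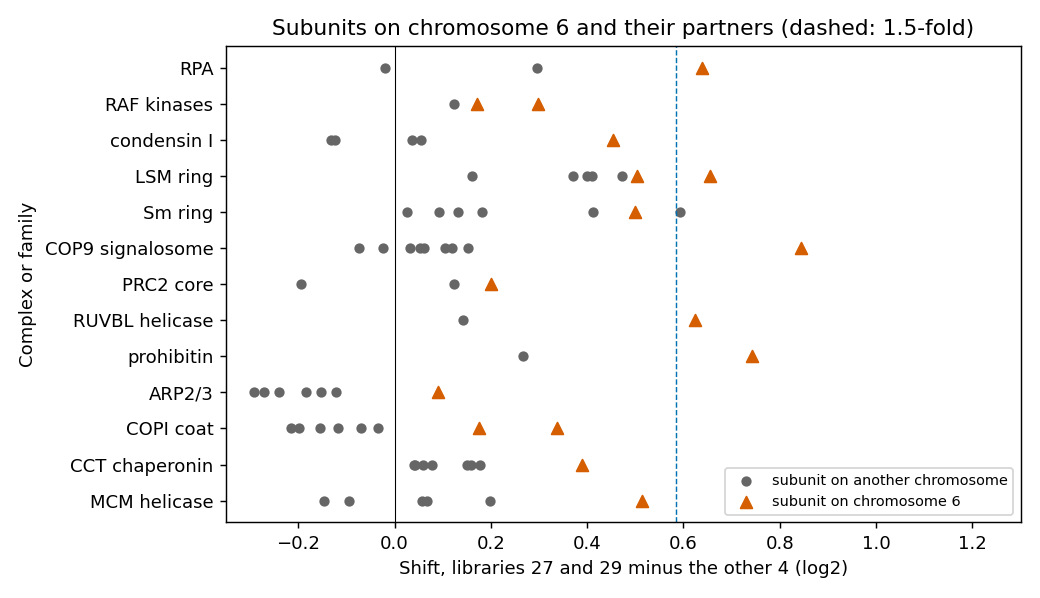
Log2 shift (x axis) of subunits encoded on chromosome 6 (triangles) and of partners encoded on other chromosomes (circles) in 13 complexes or families (y axis). Triangles lie to the right of all circles in their row except Snrpg in the Sm ring, also where the triangle itself is near 0, as for Arpc4.

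In 6 of the 7 gene families examined, members had a higher median shift than relatives on other autosomes. The 6 mitochondrial ribosomal protein genes on chromosome 6 had a median shift of 0.46, and the 59 on other autosomes 0.17. Against library 25 these medians were 0.35 and 0.02. The 2 complex I subunits on chromosome 6 had a median of 0.59, and the 32 elsewhere 0.10. Rpl32 lay at 0.48, above the highest of the 69 cytosolic ribosomal protein genes elsewhere (0.39; median 0.08). The 10 Zfp genes on chromosome 6 had a median of 0.39, and the 115 elsewhere -0.04. Slc25a13 lay at 0.82 where the 25 other mitochondrial carriers had a median of 0.05, and Rab7 at 0.34 where 35 other Rab genes had -0.10. The C-type lectins were the exception, with a median of -0.04 over 9 members and a value of -0.003 for the 1 gene elsewhere. Against library 25 they were no exception, at 0.77 for the members and 0.26 for the gene elsewhere.

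The comparison the series was built for, labelled knockout against wild type, carried the chromosome 6 level with it, since 2 of the 3 wild-type libraries were 27 and 29. By edgeR's quasi-likelihood test with Benjamini-Hochberg adjustment over 15963 genes, 44 members (11.8%) were lower in the libraries labelled knockout, where the background over all genes was 3.12%, and 7 (1.88%) were higher, where it was 5.45%. The median log2 difference was -0.26 for members and -0.01 for all genes tested, and 289 of 372 members were negative. In all 44, library 25 also lay above every library labelled knockout. Library 25 was itself a wild-type library of the test that chose them, so this order is largely built into the calls and adds no support. Of the 44 lower calls, 9 were among 21 mitochondrial members, 6 among 18 of ribosome and RNA synthesis, and 3 among 34 of signaling and cell cycle. Splicing (15 members), transcription factors (23) and secretory genes (33) gave 2 each. Some genes are in more than 1 list, and the lists were drawn up with earlier results known, so they are not ranked by these counts. Leaving out one library gave 70 lower members without library 25, 12 without 27, 10 without 29, 11 without 31, 29 without 32 and 5 without 40. Higher members numbered 4 without library 31, 2 without library 40 and 5 to 9 without each of the others. The share over all genes tested was not taken in any fit that left out a single library. The counts from such fits are therefore not read as results about chromosome 6.

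Without libraries 27 and 29, few members were lower. The same test against library 25 alone, which is assumed to vary like the libraries labelled knockout, called 2 members lower (0.538%, background 0.835%) and 17 higher (4.57%, background 1.72%), with a median difference of -0.0005. Higher members were 11 without library 31 and 20 and 22 without libraries 32 and 40. A further fit, chosen after the data were seen, took all 6 libraries with each one's chromosome 6 level entered as an offset. In it 12 members were lower (3.23%, background 2.81%) and 24 higher (6.45%, background 5.61%), and the median was -0.01. Both shares were near the background.  These fits share libraries and are given side by side.

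Members called lower with all libraries included genes near the median shift of the chromosome and genes beyond it. Chst13, a chondroitin sulfotransferase, stood at 81.9, 96.7 and 84.4, then 46.0, 55.96 and 45.1 (log2 difference -0.84 ± 0.12 SE, edgeR adjusted p = 0.00929). Clstn3, a calsyntenin, stood at 150.5, 169 and 153, then 81.5, 97.7 and 68.0 (-0.93 ± 0.14, edgeR adjusted p = 0.00993). In both, all 3 wild-type libraries lay above those labelled knockout, and library 25 lay close to libraries 27 and 29. Against library 25 alone the adjusted p by edgeR was 0.0725 for Chst13 and 0.0754 for Clstn3. Nop2, a ribosomal RNA methyltransferase, stood at 145, 167 and 149, then 99.9, 105 and 85.7 (-0.66 ± 0.11, edgeR adjusted p = 0.0147, and 0.109 against library 25 alone). Chst13, Clstn3 and Nop2 were the 3 lower members called whichever library was left out.

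The 2 members lower against library 25 alone were Skap2 and Foxp1, which were also called with all libraries. Skap2, an adaptor of integrin signaling in myeloid cells, stood at 457, 329 and 372, then 205, 189.8 and 237. Its difference was -0.87 ± 0.14 with all libraries (edgeR adjusted p = 0.0147) and -1.13 against library 25 alone (edgeR adjusted p = 0.0188). Foxp1, a forkhead repressor, stood at 190.4, 158 and 177, then 121, 117 and 108, with -0.60 ± 0.10 (edgeR adjusted p = 0.0158) and -0.74 (edgeR adjusted p = 0.0425). In both genes library 25 was the highest of all 6, so libraries 27 and 29 did not stand above it. With the chromosome 6 offset neither passed (edgeR adjusted p = 0.114 and 0.18).

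For Phb2 the difference was -0.73 ± 0.14 (edgeR adjusted p = 0.0221), and -0.46 against library 25 alone, where it did not pass (edgeR adjusted p = 0.197). Bid gave -0.81 ± 0.15 (edgeR adjusted p = 0.0193) and -0.53 (edgeR adjusted p = 0.164). Ccnd2 gave -2.22 ± 0.38 (edgeR adjusted p = 0.0221) and -1.45 (edgeR adjusted p = 0.0999). All 3 passed with the chromosome 6 offset, at adjusted p by edgeR of 0.0311, 0.0215 and 0.0173. None of the 3 kept its call in every fit that left out 1 library, where the highest adjusted p was 0.0824, 0.0703 and 0.0958.

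The 7 members higher in the libraries labelled knockout were Samd9l, Clec5a, Mgll, Alox5, C1rl, Ptms and Cd9. Samd9l, an interferon-inducible antiviral protein, stood at 31.9, 31.3 and 35.7, then 95.0, 91.6 and 142 (1.73 ± 0.18, edgeR adjusted p = 0.00368). The 3 wild-type libraries lay together, and against library 25 alone the difference was 1.77 (edgeR adjusted p = 0.0427). C1rl, a complement C1r-like protease, stood at 26.1, 28.8 and 30.5, then 50.7, 45.3 and 53.7 (0.81 ± 0.12, edgeR adjusted p = 0.00929, and 0.0491 against library 25). Samd9l and C1rl were the 2 higher members called whichever library was left out. Alox5 stood at 80.7, 125 and 94.9, then 174, 182 and 207 (0.91 ± 0.16, edgeR adjusted p = 0.0192, and 0.0179 against library 25). Its highest wild-type library was 27, still below all those labelled knockout. Ptms, parathymosin, stood at 15.9, 23.9 and 23.0, then 39.7, 38.9 and 52.9 (1.07 ± 0.19, edgeR adjusted p = 0.0199, and 0.0313 against library 25). Mgll, monoacylglycerol lipase, stood at 14.999, 16.3 and 14.5, then 28.3, 24.5 and 27.01 (0.80 ± 0.13, edgeR adjusted p = 0.0143, and 0.104 against library 25). The neutrophil and monocyte marker sums above moved with these differences, and their part was not tested.

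Some members did not pass with all libraries but passed in another fit, and the gap between fits was not tested gene by gene. Irf5 was higher by 1.15 in the libraries labelled knockout than in library 25 (edgeR adjusted p = 0.0185) and by 0.17 over all libraries (edgeR adjusted p = 0.831), and did not pass with the offset (edgeR adjusted p = 0.388). Clec4a2 was higher by 1.15 (edgeR adjusted p = 0.0373) and by 0.49 (edgeR adjusted p = 0.276), and passed with the offset (edgeR adjusted p = 0.0423). For both, libraries 27 and 29 lay nearer to the libraries labelled knockout than library 25 did.

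Promoter windows of 300 bases (250 before and 50 after the start) were matched by symbol in the RefSeq table of GRCm38.p6 for 326 of the 372 members, giving 417 promoters. CCGGAAG, searched on both strands, was in 21.1% of member promoters, 20.6% of promoters on the other autosomes and 8.86% of all 32851 promoters in the table. By class it was in 6.25% of promoters of opposite members, 12.3% of flat, 22.6% of partial, 25.7% of near 1.5-fold and 25% of those over. On the other autosomes the shares in the same order were 16.3%, 23.3%, 21.99%, 14.6% and 0%. The observed-to-expected ratio of CpG had medians of 0.51, 0.61, 0.80, 0.81 and 0.79 over the member classes. For the same classes on the other autosomes it was 0.74, 0.82, 0.80, 0.73 and 0.68. The opposite class holds 32 promoters and the class over holds 24, so these shares rest on few promoters. The TATA hexamer TATAAA was in 7.19% of member promoters, 6.43% of promoters on the other autosomes and 13.6% of all promoters. The Phb2, Alox5 and Clec12a sequences printed above are single cases and stand for no class.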

How the data were processed

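RNA was extracted with TRIzol and sequenced by a commercial company, per the labels' protocols. For 6 libraries the authors deposited whole-number counts per gene, which are not normalized. Salmon and limma, with GRCm38 and mm10, are named in the submitters' processing notes without roles. Whether the counts are reads or rounded estimates, and how strand was used, are points not given in the sources used here. Of 372 members, 13 had the same start as in the GENCODE M21 annotation of GRCm38, so deposited positions are printed with no build.

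Groups came from the sample titles. Members, role lists, rules and tests were chosen with earlier results of these data known. Levels are TMM-scaled CPM as log2(CPM + 0.5). Tests used edgeR 4.0.16 in R 4.3.3 (robust quasi-likelihood fit, filterByExpr with minimum count 10 and minimum total 15, no covariates) with Benjamini-Hochberg adjustment over all genes tested, threshold 0.05, and were tested on simulated data. Each SE was the log2 difference divided by the square root of its F value. Named genes were the highest-expressed and the extreme members of each role list and class, the members with the smallest p, and those at the CPM minimum. Other genes were named to illustrate a count, after their values were seen. Promoters came from RefSeq. A gene that the rule allows is not reported here. Alternatives were other scalings, CPM minimums, pseudocounts, references, single libraries left out, DESeq2 1.42.0, limma-voom (limma 3.58.1), no filter, no robust shrinkage and the chromosome 6 offset.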

Additional observations from a re-analysis of the deposited data

How the results depend on the processing

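No paired analysis was possible because the title numbers of the 2 groups are not shared. The cause of the changes below was not tested. For the counts of calls below, the share over all genes tested is given for the offset fit only. The other counts of calls are not read as results about chromosome 6. The median shift of members (0.36) was 0.39 with upper-quartile factors, 0.43 with total counts, 0.38 with TMM factors from genes off chromosome 6, 0.35 at a minimum of 4 CPM, 0.36 with a pseudocount of 2, 0.41 against library 25, and 0.37 to 0.38 with single libraries left out. Members with both libraries above the others numbered 122 at a minimum of 64 CPM, where fewer genes were taken. The class over 1.5-fold held 38 members with total counts, 32 against library 25 and 39 against the libraries labelled knockout, and the opposite class 14 against library 25. Members lower in the libraries labelled knockout (44) numbered 68 with total counts, 79 with no filter, 74 by DESeq2, 12 with the chromosome 6 offset, and 5 to 70 with single libraries left out. Members higher (7) numbered 19 by DESeq2, 24 with the offset, and 2 to 9 with single libraries left out. Against library 25, lower members (2) numbered 8 with total counts, 19 with no filter, 13 by DESeq2, 1 by limma-voom, 1 without robust shrinkage and 2 to 3 with single libraries left out. Higher members (17) numbered 37 with no filter, 39 by DESeq2, 6 by limma-voom, 8 without robust shrinkage and 11 to 22 with single libraries left out. No single value changed sign. With the chromosome 6 offset the calls went from 44 lower and 7 higher to 12 lower and 24 higher. Those 12 and 24 are 3.23% and 6.45% of members, near the shares over all genes tested in that fit (2.81% and 5.61%). Of the values for single genes, 305 kept their side of the threshold and 83 no longer passed. Depth was similar in all libraries, and chromosome copies, cell mixture and sex were not separated from these differences.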
